A study of Mus musculus with 16 samples.

Results

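The genes described here are the cathepsins, the proteases of the lysosome, and the subunits of the vacuolar proton pump (V-ATPase) that acidifies it. They were taken by gene name from the mRNA table, as names made of Cts and a letter or number or beginning with Atp6v0 or Atp6v1, and the transcripts of a gene were summed. This gave 38 of the 27150 genes, 15 of them cathepsins and 23 pump genes. RNA of mouse epididymal fat, the visceral depot beside the epididymis, was sequenced in 16 libraries of 4 groups. All mice were male and of the strain C57BL/6 (C57BL/6J in the protocol), and were bought at 6 weeks of age and about 22 g. The groups were a high-fat diet (HFD) with metformin, an antidiabetic biguanide, HFD with resveratrol, a plant polyphenol, HFD without a drug, and a normal diet without a drug. Mice of the 3 HFD groups ate food with 60% fat for 8 weeks, after which the drugs were given for 6 weeks. Neither drug doses, nor the age at collection, nor the length of feeding in the HFD group without a drug are stated in the labels.

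Cathepsins are made as inactive precursors, mature in the acid lumen of endosomes and lysosomes and degrade proteins there, and some are also secreted and cleave the matrix between cells. Most are cysteine proteases, while Ctsd and Ctse are aspartic and Ctsa and Ctsg serine proteases. The pump joins a V1 part, which hydrolyses ATP in the cytosol, to a V0 part in the membrane, through which protons pass, and several subunits have isoforms that are used in few tissues. In the fat of obese mice, macrophages gather around dying fat cells, take up their lipid and carry many lysosomes.

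The 16 libraries held 13350585 to 20531032 counts on mRNA genes. The labels name epididymal fat in the titles, but the extraction text names retina and the treatment text skeletal muscle. The 12 adipocyte markers checked, among them Adipoq and Plin1, summed to 14925 to 36088 CPM (counts scaled to a common library size) in 15 libraries, with none at 0 in any group, and to 1092 CPM in resveratrol 4. That library held 11511 CPM of Crisp1, a secretory product of the epididymis, and was left out of the groups, so that resveratrol has 3 libraries. A further 5 libraries, metformin 2, 4 and unmatched, resveratrol 2 and normal diet 2, had 531 to 1251 CPM of motile ciliated epithelium genes, against 15.6 to 31.7 CPM in the other 10 that were used. The columns of 1 HFD and 1 metformin library carried a code found in no sample title; their prefix gave the group, and they are called HFD unmatched and metformin unmatched. Columns of HFD 1 to 3 have codes that share a number, which the code of HFD unmatched lacks; the labels do not say what it marks, and its part in the results was not tested. Nothing in the labels says whether the libraries of a group came from separate animals, so a p-value here reflects how far these libraries vary among themselves, which may be technical.

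A short motif, the E-box CACGTG, is the core of the longer CLEAR element that Tfeb and its relatives, the transcription factors of lysosome genes, are known to bind. RefSeq promoter windows (build GRCm38.p6, 250 bases before to 50 after the start) were found for 22 of the 32 members that passed the filter on low counts. CACGTG, which reads the same on both strands, lay in the window of 8 of these 22 (36.4%), against 2187 of all 27025 genes with a window (8.09%). The flanked form TCACGTGA, which contains CACGTG, lay in 5 of the 22 (22.7%), against 1.12% of all genes. The full palindromic CLEAR element lay in none of the 22, against 0.37% of all genes. The members had passed the filter on low counts, whereas the 27025 genes were not filtered, so these shares come from unlike sets. A match is a description of the letters and not a sign of binding. The stretches below run 5′ to 3′ from 100 bases before the start to 10 after it, with CACGTG in capitals. They show 4 members that were higher on HFD and hold the motif, 1 that holds it and was not called, and 2 cathepsins with large changes whose windows lack it. They lie at chr7:142387818-142387927 (Ctsd, minus strand), chr4:117887320-117887429 (Atp6v0b, minus), chr8:105566055-105566164 (Atp6v0d1, minus), chr17:26676296-26676405 (Atp6v0e, plus), chr19:4855065-4855174 (Ctsf, plus), chr3:95499110-95499219 (Ctsk, plus) and chr3:95526686-95526795 (Ctss, plus).
Ctsd: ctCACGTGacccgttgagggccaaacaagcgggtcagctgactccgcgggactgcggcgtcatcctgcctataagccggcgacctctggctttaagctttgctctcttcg
Atp6v0b: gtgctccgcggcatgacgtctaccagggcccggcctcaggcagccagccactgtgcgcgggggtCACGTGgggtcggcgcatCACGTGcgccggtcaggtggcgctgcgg
Atp6v0d1: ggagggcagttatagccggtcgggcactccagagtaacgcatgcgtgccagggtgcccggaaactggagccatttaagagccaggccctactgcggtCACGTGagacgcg
Atp6v0e: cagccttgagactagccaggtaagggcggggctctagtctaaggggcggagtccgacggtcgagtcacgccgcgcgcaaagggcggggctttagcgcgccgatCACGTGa
Ctsf: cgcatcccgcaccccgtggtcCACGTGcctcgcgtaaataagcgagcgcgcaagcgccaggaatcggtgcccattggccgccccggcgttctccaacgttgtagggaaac
Ctsk: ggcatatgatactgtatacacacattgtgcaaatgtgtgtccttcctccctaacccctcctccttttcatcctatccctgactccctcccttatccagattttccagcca
Ctss: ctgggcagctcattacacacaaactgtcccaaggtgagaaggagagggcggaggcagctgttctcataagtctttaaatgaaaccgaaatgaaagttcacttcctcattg
Atp6v0b held the motif at positions -36 and -18 from the start, Atp6v0d1 at -3 and Atp6v0e at 4, just inside the transcript. In Ctsd it lay at -98 and again at -245, outside the printed stretch.

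Most members were expressed in every group. Of the 38, 32 passed edgeR's filter on low counts, 13 cathepsins and 19 pump genes. The other 6 were Ctsg, a protease of neutrophil granules, Ctsq, a placental cathepsin, the pseudogene Atp6v0c-ps1, and the restricted isoforms Atp6v1b1, Atp6v1e2 and Atp6v1g3. Per length of transcript, Ctsd was the most abundant cathepsin in each group, at 1009 ± 298 TPM (a level scaled by transcript length; SD, n = 4) with metformin, 1097 ± 77.3 TPM (n = 3) with resveratrol, 2205 ± 569.6 TPM (n = 4) on HFD and 1037 ± 212 TPM (n = 4) on normal diet. Ctsb followed on the same scale at 946 ± 223, 1018 ± 125, 1883 ± 498 and 866 ± 186 TPM in the same order of groups. The most abundant pump gene was Atp6v1e1, the E1 stalk subunit of V1, at 258 ± 49.1, 249.9 ± 25.0, 323 ± 23.9 and 198 ± 19.8 TPM.

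Summed over each family, expression stood highest in 3 of the 4 HFD libraries. The 15 cathepsins together made up 4441, 2503, 3825 and 4410.4 CPM in the metformin libraries 1, 2, 4 and unmatched, 4274, 3707 and 4545 CPM in the resveratrol libraries 1 to 3, 8698, 9509.5, 10602 and 4987 CPM in HFD 1, 2, 3 and unmatched, and 4274, 2795, 4409 and 4027 CPM in normal diet 1 to 4. HFD 1 to 3 lay above all other libraries, and HFD unmatched lay between them and the rest. The 23 pump genes summed to 1465, 1218, 1486 and 1499 CPM in the metformin libraries, 1398, 1350.1 and 1445 CPM with resveratrol, 2441, 2531, 2787 and 1575 CPM on HFD and 1278, 1148, 1398 and 1329.9 CPM on normal diet, in the same order of libraries. Again HFD 1 to 3 were the 3 highest, with HFD unmatched next.

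On HFD, 7 of the 13 tested cathepsins were higher than on normal diet and 1 was lower, and 12 of the 19 tested pump genes were higher and none lower. Over all 17535 genes tested, 23.1% were called in this comparison, 13.8% higher and 9.34% lower (edgeR quasi-likelihood test, two-sided, Benjamini-Hochberg adjusted p under 0.05). The median log2 fold change was 0.61 over the tested cathepsins and 0.54 over the tested pump genes, beside -0.04 over all genes. The largest increases were those of the osteoclast and macrophage genes Atp6v0d2, Ctsk and Ctss. The E-box lay in 7 of the 14 members higher on HFD that had a promoter window and in 1 of the 8 others with a window (12.5%), Ctsf.

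Ctsb, an abundant endopeptidase and carboxypeptidase of the lysosome, had 4180.0, 4678, 5017 and 2492 CPM in HFD 1, 2, 3 and unmatched, against 1904, 1154, 2155 and 1968 CPM in normal diet 1 to 4. All 4 HFD libraries lay above all 4 normal diet libraries. The difference was 2.28-fold, a log2 fold change of 1.19 ± 0.26 (SE) with an adjusted p of 0.00698. Ctsd, the main aspartic protease of the lysosome, had 2204, 2358, 2747 and 1341 CPM on HFD, against 1283, 664, 972 and 963 CPM on normal diet. The groups did not overlap, although HFD unmatched lay close to normal diet 1. Its log2 fold change was 1.16 ± 0.28 (SE), with an adjusted p of 0.0100. Ctsl, a strong cysteine endopeptidase, had 667, 621, 921 and 291 CPM on HFD, against 307, 319, 312 and 288 CPM on normal diet. Here HFD 1 to 3 lay well above the normal diet libraries, and HFD unmatched lay among the normal diet libraries. Its log2 fold change was 1.03 ± 0.25 (SE), with an adjusted p of 0.0103.

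Ctss, which trims the invariant chain of MHC class II in antigen-presenting cells and stays active at neutral pH, had 576, 684, 692 and 139 CPM in HFD 1, 2, 3 and unmatched, against 70.2, 70.0, 203 and 100.2 CPM in normal diet 1 to 4. HFD 1 to 3 stood far above every normal diet library, HFD unmatched did not, and normal diet 3 was the highest of its group. The gene (ENSMUSG00000038642, chr3:95526786-95556403, GRCm38) was 4.71-fold higher, with a log2 fold change of 2.24 ± 0.49 (SE) and an adjusted p of 0.00651. Ctsk, the collagen-degrading cathepsin of osteoclasts, had 129, 154, 168 and 23.4 CPM on HFD, against 10.3, 18.8, 34.5 and 14.9 CPM on normal diet. HFD unmatched again lay within the range of the normal diet libraries, of which normal diet 3 was the highest. For Ctsk (ENSMUSG00000028111, chr3:95499256-95509362) the difference was 6.03-fold, with a log2 fold change of 2.59 ± 0.55 (SE) and an adjusted p of 0.00604. Neither of these 2 genes held CACGTG in its promoter window.

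Ctsz and Ctsa, which cut from the carboxyl end of proteins, were also higher. Ctsz, which removes single residues, had 358, 394, 411 and 196 CPM on HFD, against 165, 104, 166 and 154 CPM on normal diet, and the groups did not overlap. Its log2 fold change was 1.21 ± 0.25 (SE), with an adjusted p of 0.00486. Ctsa, a serine carboxypeptidase that also shields lysosomal sialidase and beta-galactosidase, had 195, 213, 221 and 128 CPM on HFD, against 117, 102, 147 and 129.8 CPM on normal diet. HFD unmatched lay among the normal diet libraries, and the log2 fold change was 0.61 ± 0.17 (SE), with an adjusted p of 0.0210.

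The other 6 tested cathepsins were not called higher. Ctso, a little-studied cysteine cathepsin, had 72.7, 72.4, 73.4 and 80.6 CPM on HFD, against 94.5, 79.6, 94.6 and 88.4 CPM on normal diet. It was the 1 cathepsin called lower, by a small margin, with a log2 fold change of -0.26 ± 0.08 (SE) and an adjusted p of 0.0326, and HFD unmatched overlapped the normal diet group. Ctse, an aspartic protease of stomach and immune cells, was near the limit of detection, at 0.406, 0.154, 0.261 and 0.362 CPM on HFD, against 0.616, 0.709, 0.965 and 0.764 CPM on normal diet. All 4 HFD libraries lay below all 4 normal diet libraries, but the adjusted p was 0.0537. Ctse passed the threshold in 5 of the 23 other settings, with adjusted p-values of 0.0203 to 0.0465, among them DESeq2 at 0.0333. Ctsh, an aminopeptidase, had a log2 fold change of 0.53 ± 0.19 (SE) and an adjusted p of 0.0575. Ctsw, a protease of T and NK cells, was low as well, at 0.914, 0.615, 1.15 and 1.57 CPM on HFD and 0.924, 0.557, 1.29 and 0.940 CPM on normal diet. Ctsc, which activates granule proteases, and Ctsf had log2 fold changes of -0.14 ± 0.09 (SE) and -0.06 ± 0.14 (SE), and neither passed the threshold. Counted by overlap alone, 3 cathepsins had all HFD libraries above all normal diet libraries and 1 had them all below, where 14.1% and 13.7% of all genes tested did.

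**Figure D1:**
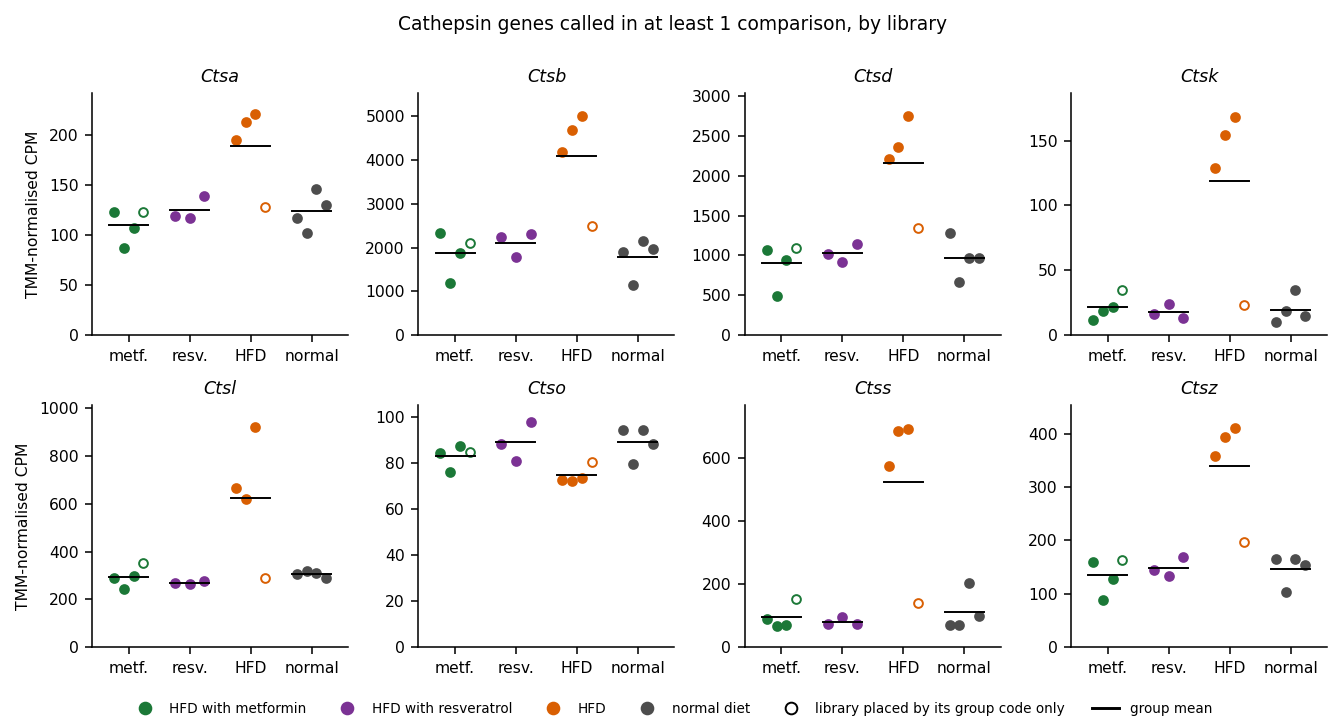
TMM-normalised CPM (vertical axes, linear, from 0) of the 8 cathepsins called in at least 1 of the comparisons with HFD, with 1 point per library in the metformin, resveratrol, HFD and normal diet groups, open points for the 2 libraries placed by their group code and a bar at each group mean. In all panels but Ctso, HFD 1 to 3 stand above every other library and HFD unmatched lies near the rest.

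Among the V0 genes, 6 were higher on HFD. Atp6v0a1, the a1 isoform of the subunit that forms the proton channel, had 359, 395, 387 and 188 CPM in HFD 1, 2, 3 and unmatched, against 130.3, 92.9, 132 and 150.3 CPM in normal diet 1 to 4. The groups did not overlap, and the difference was 2.63-fold, with a log2 fold change of 1.40 ± 0.23 (SE) and an adjusted p of 0.00160. Atp6v0d2, the d2 isoform of the subunit between ring and stalk, which is known from osteoclasts and macrophages, had 146, 172, 208 and 14.1 CPM on HFD, against 2.85, 3.49, 36.1 and 3.58 CPM on normal diet. HFD 1 to 3 lay far above the rest, HFD unmatched lay below normal diet 3, and normal diet 3 stood far above its own group. Its log2 fold change (ENSMUSG00000028238, chr4:19876841-19922605) was 3.55 ± 0.96 (SE), or 11.7-fold, with an adjusted p of 0.0178. Without normal diet 3 the log2 fold change was 5.34, with an adjusted p of 0.00253.

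The widely used isoform d1 moved much less. Atp6v0d1 had 152, 145, 163 and 127 CPM on HFD, against 108, 93.8, 107 and 107 CPM on normal diet, without overlap, and a log2 fold change of 0.49 ± 0.12 (SE; adjusted p = 0.0117). The ring subunits were both higher without overlap. Atp6v0b had 85.8, 91.1, 91.8 and 71.2 CPM on HFD, against 51.0, 50.5, 59.3 and 57.6 CPM on normal diet, with a log2 fold change of 0.64 ± 0.11 (SE; adjusted p = 0.00235). Atp6v0c, the main proteolipid, had 103, 115, 114 and 81.7 CPM on HFD, against 56.2, 63.8, 78.2 and 70.4 CPM on normal diet, with a log2 fold change of 0.62 ± 0.13 (SE; adjusted p = 0.00530). Its value is uncertain to the extent that reads of its pseudogene Atp6v0c-ps1 were assigned to it, and the pseudogene itself had at most 0.0536 CPM in any library. Atp6v0e, a small membrane subunit, had 126, 101, 148 and 99.5 CPM on HFD, against 83.8, 72.8, 83.2 and 85.7 CPM on normal diet. This was a smaller difference, of 0.54 ± 0.18 (SE) on the log2 scale with an adjusted p of 0.0396, and the call was lost in 10 of 23 other settings.

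Among the V1 genes, 6 were higher on HFD, the catalytic pair A and B2 and the subunits C1, E1, F and H, of which H had the smallest difference. Atp6v1a, which binds and hydrolyses ATP, had 341, 357, 426 and 173 CPM in HFD 1, 2, 3 and unmatched, against 133, 133, 174 and 145 CPM in normal diet 1 to 4. HFD 1 to 3 lay well above the normal diet libraries, and HFD unmatched lay just under normal diet 3. Its log2 fold change was 1.15 ± 0.20 (SE), with an adjusted p of 0.00232. Atp6v1b2, its partner in the ring, had 401, 421, 474 and 199 CPM on HFD, against 151, 139, 212 and 158 CPM on normal diet, with the same overlap through HFD unmatched. The log2 fold change was 1.18 ± 0.23 (SE), with an adjusted p of 0.00374. Atp6v1c1, which locks V1 onto V0, had 125, 130.0, 137 and 71.8 CPM on HFD, against 72.3, 76.3, 85.4 and 73.9 CPM on normal diet. HFD unmatched was the lowest of all 8, and the log2 fold change was 0.59 ± 0.16 (SE), with an adjusted p of 0.0155.

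The stalk subunits E1 and F were higher in every HFD library than in any normal diet library. Atp6v1e1 had 205, 199, 218 and 177 CPM on HFD, against 138, 98.7, 110.4 and 126 CPM on normal diet, with a log2 fold change of 0.76 ± 0.15 (SE; adjusted p = 0.00488). Atp6v1f had 37.3, 41.3, 45.2 and 32.2 CPM on HFD, against 26.4, 24.4, 22.1 and 23.6 CPM on normal diet, with a log2 fold change of 0.69 ± 0.10 (SE; adjusted p = 0.000820), the smallest adjusted p among the members. Atp6v1h, a regulatory subunit, had 143, 139, 154 and 115 CPM on HFD, against 113, 96.8, 117 and 117 CPM on normal diet, with 1 HFD library inside the normal diet range and a log2 fold change of 0.31 ± 0.10 (SE; adjusted p = 0.0332). Atp6v1d and Atp6v1g1, both of the stalks, had log2 fold changes of 0.18 ± 0.10 (SE) and 0.09 ± 0.11 (SE) and were not called, nor were Atp6v0a2 and Atp6v0e2, at 0.29 ± 0.12 (SE) and 0.17 ± 0.15 (SE). By overlap alone, 7 of the 19 tested pump genes had all HFD libraries above all normal diet libraries, where 14.1% of all genes tested did.

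**Figure D2:**
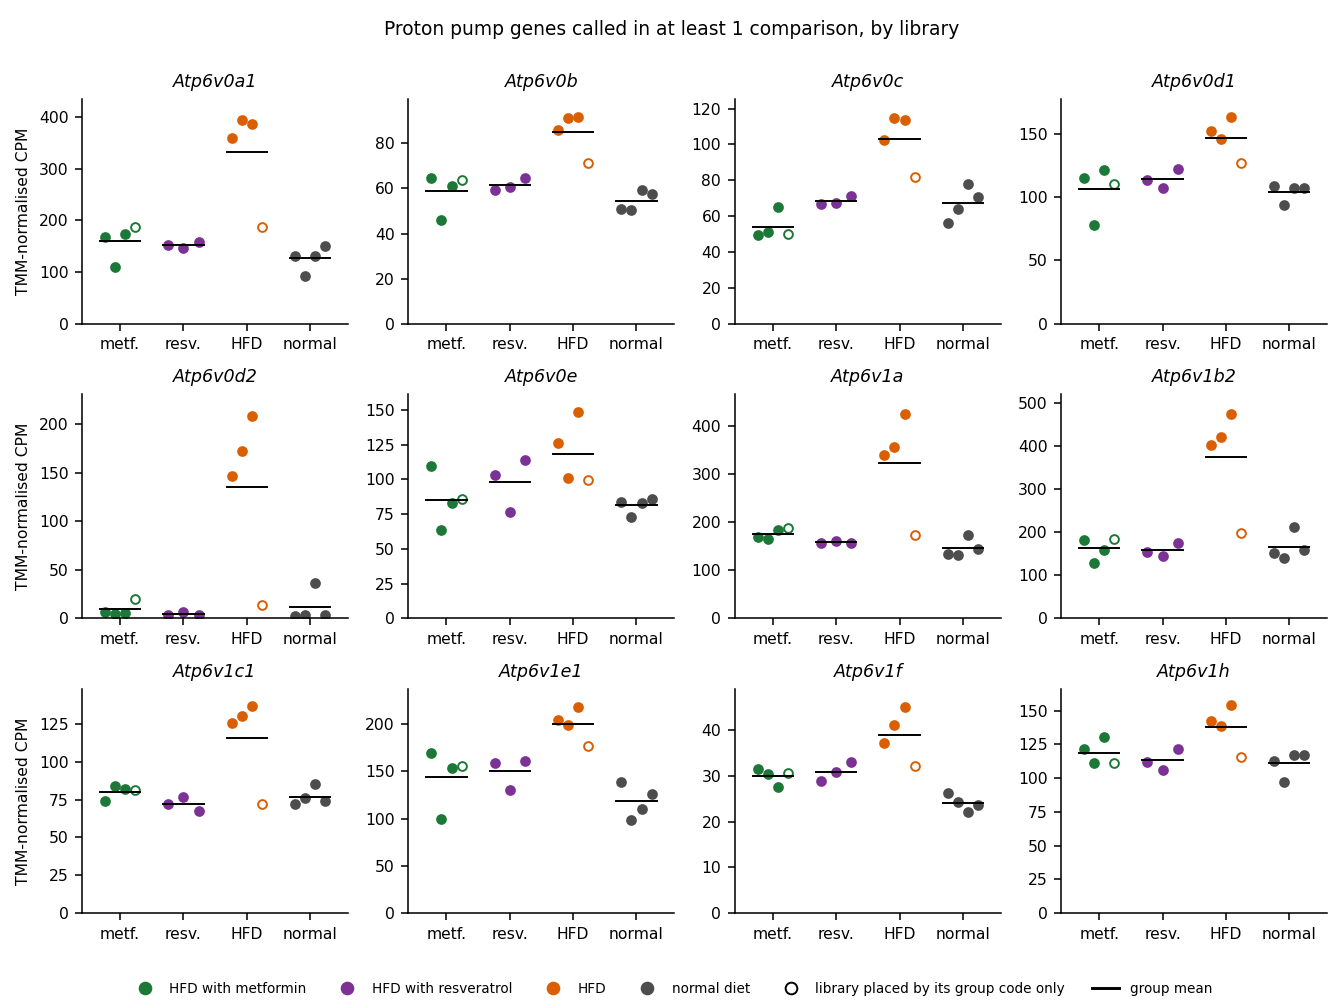
TMM-normalised CPM (vertical axes, linear, from 0) of the 12 proton pump genes called in at least 1 of the comparisons with HFD, with 1 point per library in the metformin, resveratrol, HFD and normal diet groups, open points for the 2 libraries placed by their group code and a bar at each group mean. Atp6v0d2 shows the widest gap, with HFD 1 to 3 between 146 and 208 CPM and every other library at 36.1 CPM or less.

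Within the subunits that have isoforms, the make-up of the d and a subunits differed most. Per length of transcript, Atp6v0d2 made up 4.40, 3.77, 3.20 and 10.8% of the summed d1 and d2 TPM in the metformin libraries 1, 2, 4 and unmatched, 2.15, 3.99 and 2.21% in resveratrol 1 to 3, 38.3, 44.7, 46.0 and 7.44% in HFD 1, 2, 3 and unmatched, and 1.80, 2.23, 18.5 and 2.18% in normal diet 1 to 4. HFD 1 to 3 stood apart, with normal diet 3 next. Tcirg1 is the a3 isoform, the main one of lysosomes in osteoclasts and macrophages, and its name does not follow the Atp6v0 pattern, so it is no member by name. It rose on HFD, with 149 ± 56.5 CPM (SD, n = 4) on HFD, 54.0 ± 22.5 CPM (SD, n = 4) on normal diet and a log2 fold change of 1.46 ± 0.32 (SE; adjusted p = 0.00620). Its share of the a1 to a4 TPM was 24.1% ± 2.08% with metformin (SD, n = 4), 24.4% ± 0.767% with resveratrol (n = 3), 34.4% ± 4.33% on HFD (n = 4) and 30.8% ± 7.46% on normal diet (n = 4), and the HFD and normal diet libraries overlapped. The a1 isoform stayed the major one in each group by mean, at 53.4% ± 3.52%, 55.8% ± 5.66%, 56.1% ± 0.340% and 49.4% ± 6.93% in the same order. The shares were not tested.

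**Figure D3:**
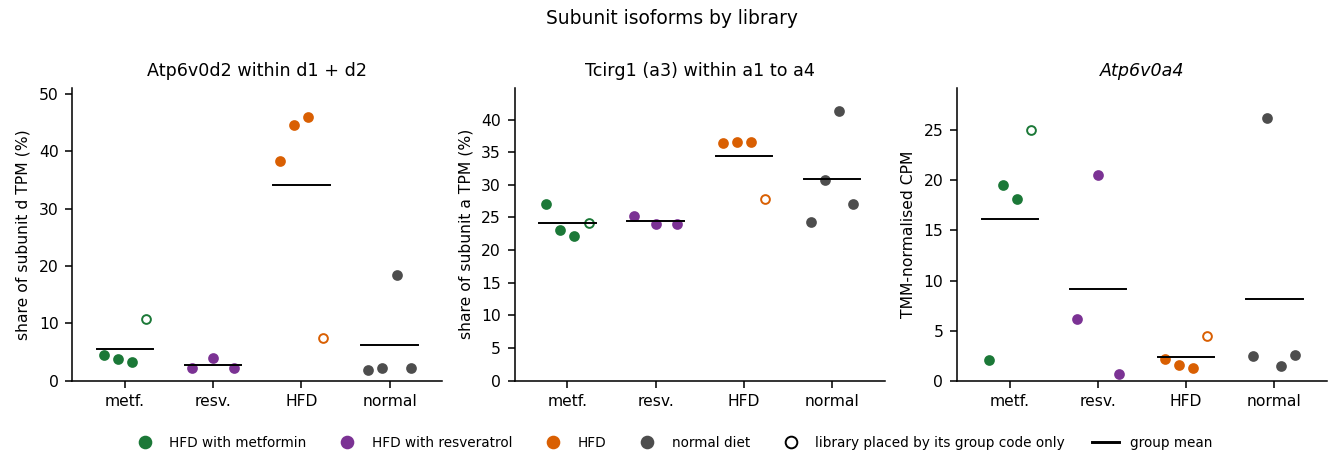
Left and middle, share (%) of Atp6v0d2 in the TPM of the d subunits and of Tcirg1 in the TPM of the a subunits; right, TMM-normalised CPM of Atp6v0a4; 1 point per library in the metformin, resveratrol, HFD and normal diet groups, open points for libraries placed by their group code, bars at the group means. Atp6v0d2 reached 38.3 to 46.0% in HFD 1 to 3 and 18.5% or less elsewhere, while Atp6v0a4 was high in the 5 libraries with ciliated epithelium genes.

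Most macrophage markers moved with these genes. The 20 markers on the list, which has 21 identifiers because Itgam has 2, summed to 2155, 1486, 1785 and 2263 CPM in the metformin libraries 1, 2, 4 and unmatched, 2015, 1960.2 and 2049 CPM in the resveratrol libraries 1 to 3, 6609, 7402, 7857 and 2560.3 CPM in HFD 1, 2, 3 and unmatched, and 2031, 1775, 3220.5 and 2443 CPM in normal diet 1 to 4. No marker was at 0 in any group, and 14 of the 21 identifiers were called higher on HFD, 17 lower with metformin and 12 lower with resveratrol. Over all genes tested, 13.8% were called higher on HFD, 7.84% lower with metformin and 3.09% lower with resveratrol. Not all identifiers went the same way, with log2 fold changes of -0.74 to 3.77 on HFD. They ran from -3.89 to 0.38 with metformin and from -4.46 to 0.38 with resveratrol. By overlap, 2 of the 21 had all HFD libraries above all normal diet libraries, where 14.1% of all genes tested did. All metformin libraries lay below all HFD libraries for 10, and all resveratrol libraries for 14, where 8.74% and 12.4% of all genes did. The libraries with the most macrophage markers, HFD 1 to 3, were those with the highest Ctss, Ctsk and Atp6v0d2, and normal diet 3 was the highest of its group for all 3 genes and for the markers. Their part in the result was not tested, and in whole tissue fewer cells of a type and less RNA per cell cannot be told apart. The adipocyte markers summed to 22745, 22639.7, 24446 and 30639 CPM in the HFD libraries and 33369, 20435, 25598 and 31626 CPM in the normal diet libraries, and the 2 ranges overlapped.

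**Figure D4:**
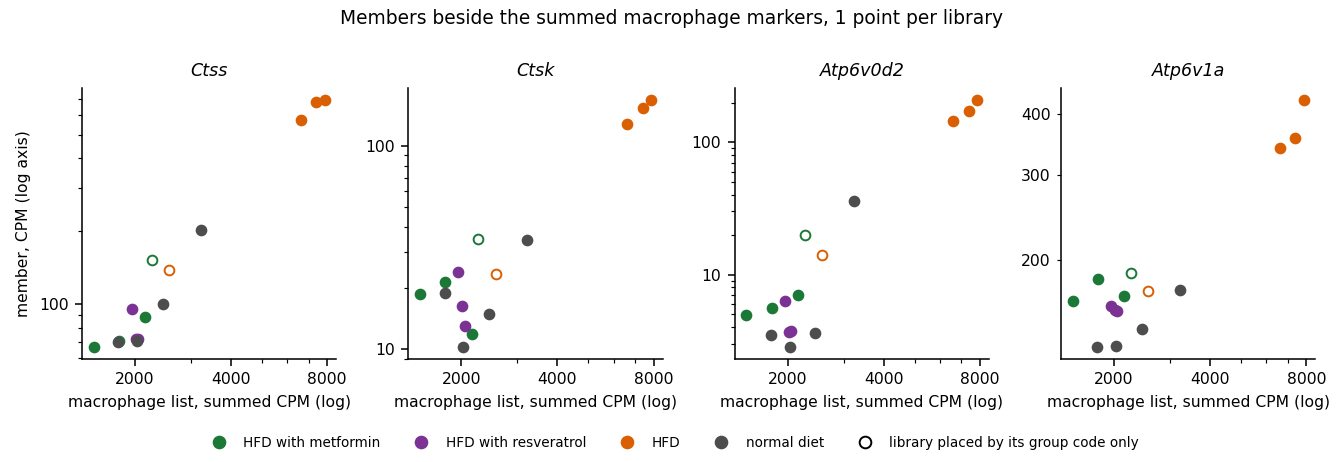
CPM of Ctss, Ctsk, Atp6v0d2 and Atp6v1a (vertical log axes) against the summed CPM of the macrophage marker list (horizontal log axis), 1 point per library, coloured by metformin, resveratrol, HFD and normal diet. HFD 1 to 3, at 6609 to 7857 CPM of markers, form the upper right corner of each panel, and the other 12 libraries lie at 3220 CPM or less.

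With each library left out in turn, 6 to 9 cathepsins and 9 to 12 pump genes were called, where 15.6% to 28.7% of all genes were. Of the 20 calls, 10 held in all 23 other settings, those of Ctsk, Ctsl, Ctss, Atp6v0a1, Atp6v0b, Atp6v0c, Atp6v1a, Atp6v1b2, Atp6v1e1 and Atp6v1f. With resveratrol 4 added to the fit, 3 cathepsins and 9 pump genes were called, where 8.83% of all genes were.

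With metformin, 7 of the 13 tested cathepsins and 9 of the 19 tested pump genes were lower than on HFD alone, and no member was higher. Over all genes tested, 13.9% were called, 6.09% higher and 7.84% lower. The median log2 fold change was -0.78 over the cathepsins and -0.47 over the pump genes, beside 0.04 over all genes. The 7 cathepsins were those that were higher on HFD than on normal diet, Ctsa, Ctsb, Ctsd, Ctsk, Ctsl, Ctss and Ctsz, and the 9 pump genes were all among the 12 that were higher there. The 2 comparisons share the HFD libraries, so a high HFD value enters both. Markers of epididymis principal cells moved with this comparison. Their list of 12 identifiers in the table summed to 23.7, 52.9, 29.9 and 20.9 CPM in metformin 1, 2, 4 and unmatched, and to 0.305, 0.256, 0.209 and 0.121 CPM in HFD 1, 2, 3 and unmatched, where 10 of the 12 were at 0. Of the 3 that passed the filter, 2 were called higher with metformin, and Crisp1 itself was at 14.6 CPM or more in each metformin library and at 0 in the HFD libraries. Their part in the result was not tested.

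Ctss had 88.6, 66.9, 70.4 and 151 CPM in the metformin libraries 1, 2, 4 and unmatched, against 576, 684, 692 and 139 CPM in HFD 1, 2, 3 and unmatched. Metformin unmatched lay above HFD unmatched, and the other metformin libraries lay below every HFD library. The log2 fold change was -2.47 ± 0.49 (SE), a value 5.54-fold lower with metformin, with an adjusted p of 0.0125. Ctsk had 11.8, 18.8, 21.5 and 35.1 CPM with metformin, against 23.4 to 168 CPM on HFD, with a log2 fold change of -2.44 ± 0.55 (SE; adjusted p = 0.0179). Without the 2 unmatched libraries the log2 fold changes of Ctss and Ctsk were both -3.11. Ctsl had 288, 243, 297 and 352 CPM with metformin, against 291 to 921 CPM on HFD, with a log2 fold change of -1.08 ± 0.25 (SE; adjusted p = 0.0187). In all 3 genes the metformin group overlapped HFD through HFD unmatched alone.

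The other 4 cathepsins did not overlap between the groups, where 8.74% of all genes tested had all metformin libraries below all HFD libraries. Ctsb had 2326, 1192, 1884 and 2109 CPM with metformin, against 2492 to 5017 CPM on HFD (log2 fold change -1.12 ± 0.26 SE, adjusted p = 0.0203). Ctsd had 1071, 496, 943 and 1093 CPM with metformin, against 1341 to 2747 CPM on HFD (log2 fold change -1.26 ± 0.28 SE, adjusted p = 0.0167). Metformin 2, the library richest in ciliated epithelium genes, was the lowest of its group for Ctsb, Ctsd, Ctsa and Ctsz. Ctsz had 159.7, 87.5, 128 and 164 CPM with metformin, against 196 to 411 CPM on HFD (log2 fold change -1.33 ± 0.25 SE, adjusted p = 0.0120). Ctsa had 123, 87.0, 107 and 124 CPM with metformin, against 128 to 221 CPM on HFD (log2 fold change -0.78 ± 0.17 SE, adjusted p = 0.0168). Ctso had 84.3, 76.2, 87.2 and 85.0 CPM with metformin, against 72.4 to 80.6 CPM on HFD, and was not called, at 0.15 ± 0.08 (SE) on the log2 scale.

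Of the 9 pump genes called lower, 5 belong to V0. Atp6v0d2 had 6.94, 4.93, 5.58 and 20.1 CPM in the metformin libraries 1, 2, 4 and unmatched, against 14.1 to 208 CPM on HFD. Metformin unmatched was the highest of its group and lay above HFD unmatched. The log2 fold change was -3.85 ± 0.97 (SE), with an adjusted p of 0.0260, and without metformin unmatched it was -4.54, with an adjusted p of 0.0307. Atp6v0c had 49.4, 51.1, 65.1 and 49.8 CPM with metformin, against 81.7 to 115 CPM on HFD, with no overlap. Its log2 fold change of -0.94 ± 0.13 (SE) had the smallest adjusted p of the members in this comparison, 0.0118. Atp6v0a1 had 167, 109, 174 and 187 CPM with metformin, against 188 to 395 CPM on HFD, with a log2 fold change of -1.06 ± 0.23 (SE; adjusted p = 0.0161). Metformin unmatched lay within 1 CPM of HFD unmatched there. Atp6v0b had 64.8, 45.9, 61.2 and 63.8 CPM with metformin, against 71.2 to 91.8 CPM on HFD (log2 fold change -0.53 ± 0.11 SE, adjusted p = 0.0154). Atp6v0d1 had 115, 78.2, 122 and 109.8 CPM with metformin, against 127 to 163 CPM on HFD (log2 fold change -0.47 ± 0.12 SE, adjusted p = 0.0295).

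Of the 4 V1 genes, the catalytic subunits had the larger differences. Atp6v1b2 had 181, 128, 159 and 183 CPM with metformin, against 199 to 474 CPM on HFD, without overlap (log2 fold change -1.20 ± 0.23 SE, adjusted p = 0.0123). Atp6v1a had 169, 165, 183 and 188 CPM with metformin, against 173 to 426 CPM on HFD (log2 fold change -0.88 ± 0.20 SE, adjusted p = 0.0194). The metformin libraries were close to each other, and 2 of them lay above HFD unmatched. Atp6v1c1 had 73.8, 84.3, 81.7 and 81.3 CPM with metformin, against 71.8 to 137 CPM on HFD (log2 fold change -0.53 ± 0.16 SE, adjusted p = 0.0420), and Atp6v1f had 31.6, 30.4, 27.7 and 30.7 CPM, against 32.2 to 45.2 CPM (log2 fold change -0.37 ± 0.10 SE, adjusted p = 0.0334). Both had small differences, and their calls were lost in 15 and 9 of the 23 other settings. Atp6v1e1, Atp6v0e and Atp6v1h, higher on HFD than on normal diet, had log2 fold changes of -0.47 ± 0.15 (SE), -0.47 ± 0.17 (SE) and -0.22 ± 0.10 (SE) with metformin and were not called. By overlap, 7 of the 19 tested pump genes had all metformin libraries below all HFD libraries, where 8.74% of all genes tested did.

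The number of calls fell when 1 of the 3 high HFD libraries was left out. Without HFD 1, HFD 2 or HFD 3 there were 3, 3 and 2 cathepsins and 3, 4 and 2 pump genes called, where 3.1%, 3.4% and 2.68% of all genes were. With resveratrol 4 added there were 1 and 2, where 1.03% of all genes were called. DESeq2 on the 15 libraries of the main fit called 8 cathepsins, all lower, and 12 pump genes, 11 lower and 1 higher. It called 25.0% of all genes there. Leaving out the 5 libraries rich in ciliated epithelium genes leaves metformin 1 alone in its group. That fit assumes that metformin 1 varies like the others. The log2 fold changes without those 5 libraries were -2.56 for Ctss, -3.32 for Ctsk, -0.81 for Ctsb, -1.06 for Atp6v0c, -0.99 for Atp6v0a1 and -4.28 for Atp6v0d2.

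With resveratrol, 4 of the 13 tested cathepsins and 6 of the 19 tested pump genes were lower than on HFD alone, and no member was higher. Over all genes tested, 4.17% were called, 1.09% higher and 3.09% lower. Median log2 fold changes were -0.83 over the cathepsins and -0.33 over the pump genes, beside 0.04 over all genes. The cathepsins were Ctsk, Ctsl, Ctss and Ctsz, and the pump genes Atp6v0a1, Atp6v0c, Atp6v0d2, Atp6v1a, Atp6v1b2 and Atp6v1c1. Each of the 10 was also called lower with metformin, in a comparison that shares the HFD libraries.

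Ctss had 72.1, 95.8 and 72.0 CPM in the resveratrol libraries 1 to 3, against 576, 684, 692 and 139 CPM in HFD 1, 2, 3 and unmatched. All resveratrol libraries lay below all HFD libraries, and the log2 fold change was -2.71 ± 0.56 (SE), 6.54-fold lower with resveratrol (adjusted p = 0.0360). Ctsk had 16.4, 23.9 and 13.1 CPM with resveratrol, against 23.4 to 168 CPM on HFD, where resveratrol 2 just passed HFD unmatched (log2 fold change -2.74 ± 0.63 SE, adjusted p = 0.0367). Ctsl and Ctsz did not overlap. Ctsl had 267, 263 and 276 CPM with resveratrol, against 291 to 921 CPM on HFD (log2 fold change -1.22 ± 0.27 SE, adjusted p = 0.0365). Ctsz had 145, 134 and 169 CPM with resveratrol, against 196 to 411 CPM on HFD (log2 fold change -1.19 ± 0.27 SE, adjusted p = 0.0367). The abundant Ctsb and Ctsd did not overlap either, at 2251, 1780.2 and 2309 CPM and 1022, 915 and 1149 CPM with resveratrol, against 2492 to 5017 CPM and 1341 to 2747 CPM on HFD, but their adjusted p-values were 0.0753 and 0.0622. In all, 5 cathepsins had the resveratrol libraries below all HFD libraries and 1, Ctso, above, where 12.4% and 9.15% of all genes tested did.

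Atp6v0d2 had 3.64, 6.34 and 3.77 CPM in the resveratrol libraries 1 to 3, against 146, 172, 208 and 14.1 CPM in HFD 1, 2, 3 and unmatched. The groups did not overlap, and the log2 fold change was -4.88 ± 1.17 (SE; adjusted p = 0.0399). Atp6v0a1 had 153, 147 and 158 CPM with resveratrol, against 188 to 395 CPM on HFD (log2 fold change -1.12 ± 0.25 SE, adjusted p = 0.0367). Atp6v0c had 66.5, 67.3 and 71.2 CPM with resveratrol, against 81.7 to 115 CPM on HFD (log2 fold change -0.60 ± 0.14 SE, adjusted p = 0.0386). In each of these genes the 3 resveratrol libraries lay below every HFD library, and for Atp6v0d2 resveratrol 2 was the highest of the 3. Atp6v1b2 had 155, 145 and 174 CPM with resveratrol, against 199 to 474 CPM on HFD (log2 fold change -1.24 ± 0.25 SE, adjusted p = 0.0360). Atp6v1a had 158, 161 and 158 CPM with resveratrol, against 173 to 426 CPM on HFD (log2 fold change -1.03 ± 0.22 SE, adjusted p = 0.0365). Both catalytic subunits were separated from HFD, whereas Atp6v1c1, at 72.0, 76.5 and 67.7 CPM with resveratrol against 71.8 to 137 CPM on HFD, overlapped it (log2 fold change -0.69 ± 0.17 SE, adjusted p = 0.0426). By overlap, 9 of the 19 tested pump genes had all resveratrol libraries below all HFD libraries, where 12.4% of all genes tested did. Among them were Atp6v0b, Atp6v0d1, Atp6v1d and Atp6v1e1, whose adjusted p-values were 0.0517, 0.133, 0.201 and 0.174.

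None of the resveratrol calls was made without HFD 1, HFD 2, HFD 3 or any 1 resveratrol library, where 1 or 2 genes of the whole table were called. The same held with the 2 groups fitted alone, where 1 gene of the whole table was called. It also held without the 5 libraries rich in ciliated epithelium genes, which left resveratrol 1 and 3 in the group. Without HFD unmatched, 9 cathepsins (8 lower and 1 higher) and 9 pump genes were called, where 11.8% of all genes were. Over all 23 other settings the log2 fold changes ranged from -3.02 to -2.53 for Ctss, -1.45 to -1.09 for Atp6v1b2 and -1.32 to -0.86 for Atp6v0a1.

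**Figure D5:**
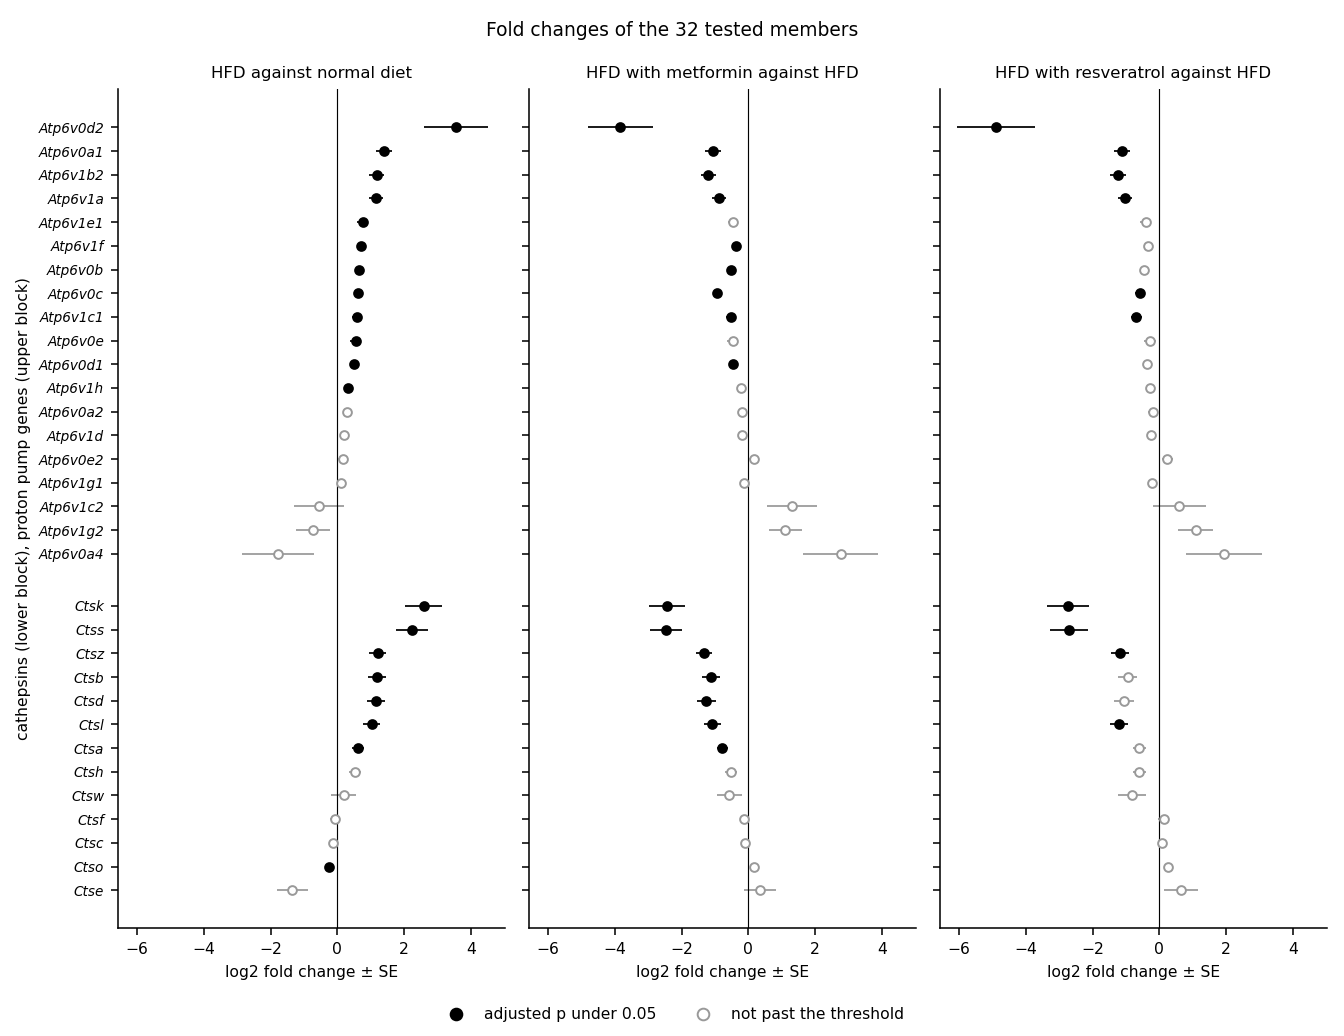
Log2 fold change ± SE (horizontal axis, linear) of the 32 tested members for HFD against normal diet, HFD with metformin against HFD and HFD with resveratrol against HFD, pump genes in the upper block and cathepsins in the lower, each sorted by the diet difference. Filled points passed the threshold; Atp6v0d2, Ctsk and Ctss lie farthest from 0 among them in each panel.

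Neither drug group differed detectably from normal diet in these genes. In HFD with metformin against normal diet, edgeR called none of the 13 cathepsins and none of the 19 pump genes, where 1.71% of all genes were called, and 1 cathepsin and 3 pump genes had an unadjusted p under 0.05, as did 18.7% of all genes. In HFD with resveratrol against normal diet none of either family was called, where 0.148% of all genes were called, and 0 cathepsins and 2 pump genes had an unadjusted p under 0.05, as did 9.83% of all genes. DESeq2 called none of them in either comparison. Median log2 fold changes were -0.12 over the cathepsins and 0.10 over the pump genes with metformin, and -0.07 and 0.12 with resveratrol. Ctss stood at 94.3 ± 39.3 CPM with metformin, 79.9 ± 13.7 CPM with resveratrol and 111 ± 63.1 CPM on normal diet (SD, n = 4, 3 and 4).

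Metformin and resveratrol were also compared with each other. No member was called, 2 of all genes were (0.0114%), and 0 cathepsins and 1 pump gene, Atp6v0c, had an unadjusted p under 0.05, as did 7.0% of all genes, and DESeq2 called none of the members. Atp6v0c had 53.9 ± 7.52 CPM with metformin and 68.3 ± 2.51 CPM with resveratrol (SD, n = 4 and 3), a log2 fold change of -0.34 ± 0.14 (SE) and an adjusted p of 0.709. A p that misses the threshold does not show that the groups are alike. On the log2 scale the difference of metformin from resveratrol was 0.24 ± 0.51 (SE) for Ctss and 1.04 ± 1.02 (SE) for Atp6v0d2. The error was larger than the difference for Ctss and nearly as large for Atp6v0d2.

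Some isoforms with a narrow range of tissues were high in metformin 2, 4 and unmatched, resveratrol 2 and normal diet 2. Atp6v0a4, the a4 isoform of kidney and epididymis, had 2.06, 19.5, 18.1 and 25.0 CPM in the metformin libraries 1, 2, 4 and unmatched, 6.15, 20.5 and 0.638 CPM in the resveratrol libraries 1 to 3, 2.18, 1.59, 1.31 and 4.47 CPM in HFD 1, 2, 3 and unmatched, and 2.46, 26.3, 1.45 and 2.53 CPM in normal diet 1 to 4. The 5 libraries above 18 CPM were the 5 with ciliated epithelium genes, and the rest lay at 6.15 CPM or less. The part of those genes in the result was not tested. Its log2 fold changes were -1.78 ± 1.09 (SE) on HFD against normal diet, 2.76 ± 1.12 (SE) with metformin against HFD and 1.93 ± 1.15 (SE) with resveratrol against HFD, none past the threshold, and the diet and metformin differences turned to 0.14 and -0.20 without those 5 libraries. Atp6v1c2, a C isoform of epithelia, had 1.44, 3.11, 3.45 and 4.70 CPM with metformin, 0.418, 4.61 and 0.830 CPM with resveratrol, 1.07, 1.69, 0.940 and 1.45 CPM on HFD and 1.62, 4.56, 0.483 and 0.881 CPM on normal diet, with the same 5 libraries as the highest. Atp6v1g2, the G isoform of neurons, stayed at 2.59 CPM or less in all 15 libraries and was not called.

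Among the members that failed the filter, Atp6v1e2, the E isoform of the testis, was found at 17.6 CPM in metformin 2, and at 0.152 CPM or less in the other 14 libraries used. Atp6v1b1, the B isoform of proton-secreting epithelia, had 2.35 CPM in metformin 2 and 0.176 CPM or less in the others. Metformin 2 also held 2281 CPM of spermatogenic cell markers, with 226 CPM of Prm2, a protamine of sperm, where the other libraries used had 54.9 to 111 CPM of those markers. Ctsg reached 0.352 CPM in the same library, Ctsq was listed at 0 in all 15, and Atp6v1g3 was found at 0.154 CPM in 1 normal diet library.

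Other genes of the lysosome were counted from lists of their own, beside 13.8% of all genes called higher and 9.34% lower on HFD, 6.09% higher and 7.84% lower with metformin, and 1.09% higher and 3.09% lower with resveratrol. Of 36 hydrolases and cofactors, 21 were higher and none lower on HFD than on normal diet, 19 were lower and none higher with metformin than on HFD, and 11 were lower and none higher with resveratrol than on HFD. Their median log2 fold changes were 0.59, -0.52 and -0.46. Among the 3 largest in each comparison were those of Lipa, the acid lipase that frees fatty acids and cholesterol from lysosomal lipid, with 113 ± 25.9 CPM with metformin, 112 ± 4.89 CPM with resveratrol, 434 ± 195 CPM on HFD and 132 ± 51.4 CPM on normal diet (SD, n = 4, 3, 4 and 4), and of Gla, an alpha-galactosidase, with 13.8 ± 2.02, 11.1 ± 1.28, 41.4 ± 18.1 and 12.2 ± 4.57 CPM in the same order. Lipa had log2 fold changes of 1.71 ± 0.36 (SE) on HFD, -1.94 ± 0.37 (SE) with metformin and -1.95 ± 0.41 (SE) with resveratrol (adjusted p = 0.00581, 0.0120 and 0.0360). Of 18 membrane proteins of the lysosome, 7 were higher on HFD, 7 lower with metformin and 2 lower with resveratrol. Lamp1, a main glycoprotein of that membrane, had a log2 fold change of 0.70 ± 0.13 (SE) on HFD and -0.63 ± 0.13 (SE) with metformin (adjusted p = 0.00321 and 0.0144). Cd68, which is on the macrophage list as well, and Laptm5, a protein of blood cells, were the 2 that were lower with resveratrol.

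Of 16 regulators, 7 were higher on HFD, 6 lower with metformin and 2 lower with resveratrol, and none was called in the other direction. Tfeb, the transcription factor of lysosome genes named above, had 27.5 ± 8.16 CPM on HFD and 17.7 ± 2.62 CPM on normal diet (SD, n = 4 each), with a log2 fold change of 0.63 ± 0.19 (SE; adjusted p = 0.0304). Its relative Tfe3 had a log2 fold change of 0.27 ± 0.08 (SE) on HFD (adjusted p = 0.0246) and -0.41 ± 0.08 (SE) with metformin (adjusted p = 0.0123). Fnip2, a folliculin partner in nutrient sensing at the lysosome, had the largest difference among those called in each comparison, at 0.95 ± 0.25 (SE), -1.17 ± 0.25 (SE) and -1.23 ± 0.28 (SE) on the log2 scale on HFD, with metformin and with resveratrol (adjusted p = 0.0155, 0.0152 and 0.0365). Mcoln1, the lysosomal calcium channel, was not called in any of the 3, at 0.01 ± 0.09 (SE), -0.25 ± 0.09 (SE) and -0.16 ± 0.10 (SE).

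Inhibitors of cathepsins were counted as well. Of the 7 tested, 4 were higher on HFD, 4 lower with metformin and 1 lower with resveratrol. Cstb, an inhibitor inside the cell, had 12.5 ± 3.85 CPM with metformin, 12.8 ± 0.369 CPM with resveratrol, 35.9 ± 15.2 CPM on HFD and 12.1 ± 2.60 CPM on normal diet (SD, n = 4, 3, 4 and 4), with log2 fold changes of 1.58 ± 0.31 (SE) on HFD, -1.53 ± 0.31 (SE) with metformin and -1.49 ± 0.34 (SE) with resveratrol (adjusted p = 0.00398, 0.0131 and 0.0369). The secreted Cst3 was higher on HFD and lower with metformin, at 0.41 ± 0.13 (SE) and -0.56 ± 0.14 (SE) on the log2 scale (adjusted p = 0.0424 and 0.0229). A list of accessory and assembly genes of the pump also held Tcirg1, itself a subunit, which is in the counts that follow. Of the 14 genes on it that were tested, 3 were higher and 1 lower on HFD. With metformin 1 was higher and 2 were lower, and with resveratrol 2 were lower. On HFD and with metformin this is near the shares of all genes. Tcirg1 was called in all 3 comparisons, at -1.63 ± 0.32 (SE) with metformin and -1.71 ± 0.35 (SE) with resveratrol (adjusted p = 0.0123 and 0.0360). Rogdi, which resembles a part of the yeast factor that reassembles the pump, went the other way, with 25.9 ± 7.17 CPM with metformin, 13.1 ± 3.28 CPM on HFD and 21.8 ± 4.85 CPM on normal diet (SD, n = 4 each), at -0.74 ± 0.23 (SE) on HFD and 0.99 ± 0.23 (SE) with metformin (adjusted p = 0.0315 and 0.0187). Most macrophage markers were higher and lower in the same comparisons, with the values given above, and their part in those counts was not tested.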

How the data were processed

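RNA of 16 fat libraries was compared at the level of genes. The values used were the authors' deposited counts per mRNA transcript, and the submitters' processing notes list fastp, HISAT2 and GRCm38 with no version and no statement of use. How transcripts were counted, whether strand was used and which annotation served is not given in the sources used here. FPKM values, which the authors deposited beside the counts of long non-coding RNA, served only to check column names, and the deposited transcript lengths to compute TPM. Counts of 91879 transcripts were summed into 27150 genes. Of the 16 count columns, 14 matched a sample title and 2 were placed by their group code, and 18 other columns of per-sample values were not used. Since the header of the mRNA table is 1 name short, columns were read by position, and for the 14 matched libraries the total implied by those FPKM values lay within 0.0418% of the sum of the library's mRNA and non-coding counts, and was off by at least 0.489% when the mRNA column of another library was used. No libraries of a group agreed within counting noise (chi-square per degree of freedom 12.6 to 506 over 24 pairs).

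Resveratrol 4, with Crisp1 above 1000 CPM, was left out. The other 15 libraries entered 1 edgeR 4.0.16 fit (R 4.3.3) with TMM normalization, the filterByExpr filter on low counts and a robust two-sided quasi-likelihood test, with group as the only factor. P-values were adjusted by Benjamini and Hochberg over 17535 genes, with a threshold of 0.05, and adjusted p-values in the text come from this fit unless another tool or a fit without named libraries is given. Each SE was taken from the log2 fold change and its F statistic. CPM values are TMM-normalised, with factors from this fit for its 15 libraries and from a separate fit of all 16 for resveratrol 4. TPM was computed from the counts per transcript. The procedure was tested on simulated counts. DESeq2 1.42.0, another normalization, no filter, a fit that is not robust, fits of 2 groups and fits without chosen libraries were the alternatives. Values per library are given for members called in a comparison with HFD, for the most abundant members per length and for isoforms of few tissues. The members and all lists were chosen with earlier results of these data known. Figures were drawn with matplotlib 3.10.9. Counting error covers only part of the spread between libraries.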

Additional observations from a re-analysis of the deposited data

Results flagged for a closer look

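In 9 of 96 groups of 4 libraries, 1 library stood apart from the other 3 by more than the 95% limit of Dixon's test. Chance alone passes that limit in about 1 of 20 independent groups. The 96 groups are the 32 tested members in the same sets of 4 libraries. They are not independent, so no excess can be read from the count. Metformin 4 had 74.0 CPM of Atp6v0a2, against 63.5 to 65.2 CPM in the other metformin libraries, and 65.1 CPM of Atp6v0c, against 49.4 to 51.1 CPM. Metformin unmatched had 20.1 CPM of Atp6v0d2, against 4.93 to 6.94 CPM in the other metformin libraries. HFD unmatched had 65.7 CPM of Atp6v0e2, against 44.9 to 47.3 CPM in HFD 1 to 3, 71.8 CPM of Atp6v1c1, against 125 to 137 CPM, and 80.6 CPM of Ctso, against 72.4 to 73.4 CPM. Normal diet 2 had 26.3 CPM of Atp6v0a4, against 1.45 to 2.53 CPM in the other normal diet libraries, and 93.8 CPM of Atp6v0d1, against 107 to 108 CPM. Normal diet 3 had 36.1 CPM of Atp6v0d2, against 2.85 to 3.58 CPM in its group.

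Resveratrol 4, used in no comparison, held 5 members above 1 CPM and at more than 2 times the highest normal diet library. It had 7.94 CPM of Atp6v1b1, against at most 0.176 CPM on normal diet, 62.1 CPM of Atp6v1c2, against at most 4.56 CPM, and 172 CPM of Atp6v1g1, against at most 46.5 CPM. It also had 9.85 CPM of Atp6v1g3, against at most 0.154 CPM on normal diet, and 247 CPM of Ctsh, against at most 85.7 CPM.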

How the results depend on the processing

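With each of the 15 libraries left out in turn, HFD against normal diet gave 6 to 9 cathepsins and 9 to 12 pump genes. Between 15.6% and 28.7% of all genes were called in those fits. Metformin against HFD gave 2 to 8 and 2 to 11, where 2.68% to 21.2% of all genes were called. Resveratrol against HFD gave 0 to 9 and 0 to 9, where 0.00556% to 11.8% were. The comparisons of the drugs with normal diet and with each other gave 0 to 0 throughout, where at most 2.44% were called. Pump genes called lower with metformin numbered 6 without metformin 2 or metformin 4, where 6.38% and 11.2% of all genes were called in either direction. With resveratrol 4 kept, 3 cathepsins were called for HFD against normal diet and 1 cathepsin and 2 pump genes for metformin. In those comparisons 8.83% and 1.03% of all genes were called. With only the 2 groups compared in the fit, 3 pump genes were called for metformin and 0 cathepsins and 0 pump genes for resveratrol. The shares of all genes called there were 7.08% and 0.00627%. Without the 5 libraries rich in ciliated epithelium genes, 0 of either family were called for either drug, with fewer libraries in each drug group, where 0.104% of all genes were called for metformin and 0.0978% for resveratrol; the log2 fold change of Ctsk with metformin was then -3.32. For resveratrol, DESeq2 called 9 cathepsins, where it called 12.2% of all genes. The fit without the 2 unmatched libraries called 8, where 10.6% were called. Without the low-count filter 3 pump genes were left, where 1.3% of all genes were called. The cause of these shifts was not tested.

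No called member changed sign in the 23 alternatives. Members below the threshold that did were Atp6v0a4, whose log2 fold change on HFD (-2.31 to 0.15 with 1 library left out) was 0.14 without the cilia-rich libraries and 0.15 without normal diet 2, and with metformin -0.20 without the cilia-rich libraries; Atp6v1c2, at 0.39 and 0.38 on HFD in the same 2 settings (-0.87 to 0.38 with 1 library left out), and with resveratrol -1.04 without the cilia-rich libraries and -1.04 without resveratrol 2 (-1.04 to 1.08 with 1 left out); and Ctsw, at -0.0537 on HFD without the 2 unmatched libraries, -0.0019 without the cilia-rich libraries and -0.0629 without HFD unmatched (-0.0629 to 0.40 with 1 left out), and 0.0620 with metformin without the cilia-rich libraries. No paired analysis was possible because the replicate numbers follow accession order and pair no samples across groups. The drug comparisons are limited by their 3 or 4 libraries a group and by the spread within HFD; depth limits the members near or under 1 CPM, such as Ctse.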

Other observations

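A list of 10 genes of the proton-secreting clear cells of the epididymis was looked at in resveratrol 4. It had 25.6 CPM of Foxi1, a transcription factor of such cells, against at most 0.161 CPM in the other 15 libraries. It had 27.2 CPM of Car12, a carbonic anhydrase, against at most 1.93 CPM in those libraries. The 10 genes on the clear-cell list summed to 169 CPM there, against 82.1 to 136 CPM in the others. Foxi1 and Car12 were picked from that list, and most of its sum in resveratrol 4 came from the other genes. Whether clear cells were present was not tested.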
